A study of Mus musculus with 20 samples.

Results

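Transcript levels of 3 plexin receptors (Plxnd1, Plxnb2 and Plxnc1) and 4 class 4 semaphorins (Sema4a, Sema4b, Sema4d and Sema4f) were followed through the CD4 T cell subsets of peripheral lymph nodes (pLN) and Peyer's patches (PP) of mice. The 7 genes were taken by their symbol in the array annotation, which gave 10 of 39429 probes, and 9 of these were among the 22264 probes tested. Each of the 20 single-colour arrays measured the RNA of 1 sorted sample, and normalised intensity, a linear fluorescence value in arbitrary units, is the level given throughout. A level is read on 1 lead probe per gene, the tested probe with the highest mean, and levels of different probes were not compared with each other.

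All samples came from mice of the Foxp3 reporter strain B6.Cg-Foxp3<tm1Mal>, in which GFP marks Foxp3+ cells, aged 8 to 14 weeks and of mixed sex, with cells of 8 to 15 mice pooled for a sample. The mice of the pLN samples had been immunised with KLH and alum and were used on day 12 (d12, 2 arrays per group) or day 25 (d25, 1 array per group). The 4 pLN groups per day were naive T cells (GFP-PD1loGL7-), follicular T helper cells (TFH, GFP-PD1hiGL7+), regulatory T cells (Treg, GFP+PD1loGL7-) and follicular regulatory T cells (TFR, GFP+PD1hi, sorted irrespective of GL7). In PP, TFH cells were split into a GL7+ and a GL7- group beside Treg and TFR cells, each with 2 arrays, and the labels name no immunisation for them. Naive T cells of PP were not analysed here.

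Plexins are transmembrane receptors for semaphorins, and their cytoplasmic part carries a GTPase-activating domain that acts on small GTPases of the Ras and Rap type and thereby on integrin adhesion and the cytoskeleton. Class 4 semaphorins are membrane-bound ligands that lymphocytes and antigen-presenting cells carry on their surface, where they can engage plexins and other receptors on a partner cell. In germinal centres, where T cells crawl among B cells, ligand and receptor pairs of this family are known to take part in the positioning of both cell types.

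The labelled cell types were checked against defining markers. Foxp3 intensity was at least 13410 on every Treg and TFR array and at most 192.3 on every naive T and TFH array. Cxcr5 was at 72180 or more on PP TFR arrays and at most 1557 on naive T arrays of pLN. The summed intensity of 5 TFH marker genes was 296700 to 479900 on pLN TFH arrays and lower, 139400 to 166900, on pLN TFR arrays. In PP it was 355100 to 606000 in TFH and 392900 and 469900 in TFR cells. The arrays lay on 5 slides of 4, each slide holding all groups of 1 tissue, day and replicate, and the RNA input was 50 ng for the arrays of slides 1 and 4 and 40 ng for the others. Slide 4, with replicate 1 of every PP group, stood apart: the summed intensity of 12 B cell marker genes was 25270 to 175600 there, against 6597 to 15260 on slide 5 and 4661 to 26490 on the pLN slides, and that of 7 epithelial genes was 3525 to 8234 against 742.9 to 2264 on slide 5. Both slides had 10 or more B cell markers detected on every array. The sum of 7 myeloid and dendritic cell genes was instead 24220 to 33050 on slide 5 and 19720 to 25310 on slide 4. On the pLN slides that sum was 10890 to 22960. Of the pLN arrays, d12 TFH replicate 1 had the highest B cell sum, 26490 against 6887 in replicate 2, and lay above the lowest array of slide 4. Its summed intensity of 3 plasma cell marker genes was 55020 against 9714 in replicate 2, and that sum was 8646 to 55130 on slide 4. The part of these transcripts in the levels of the 7 genes was not tested. On each array 43.0% to 58.0% of probes were detected, and replicate arrays correlated at r = 0.955 to 0.986 across tested probes.

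The stretches upstream of the start sites of Plxnd1 and Plxnc1 are shown because both receptors were called between pLN TFH and naive T cells. With all arrays in the fit, Plxnd1 alone of the 7 genes was called between the tissues. The sequences are the 250 bases before the RefSeq transcription start in GRCm38.p6, 5′ to 3′ on the minus strand of chr6:115995006-115995255 for Plxnd1 and of chr10:94944846-94945095 for Plxnc1. Capitals mark every match to GGGCGTGG or its reverse complement, a GC-rich word of the kind that Krüppel-like factors recognise.
Plxnd1: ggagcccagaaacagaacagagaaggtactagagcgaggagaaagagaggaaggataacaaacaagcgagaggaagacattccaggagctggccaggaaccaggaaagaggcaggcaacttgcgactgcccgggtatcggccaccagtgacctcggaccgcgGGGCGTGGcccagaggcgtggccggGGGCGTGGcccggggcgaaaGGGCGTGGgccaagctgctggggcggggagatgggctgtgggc
Plxnc1: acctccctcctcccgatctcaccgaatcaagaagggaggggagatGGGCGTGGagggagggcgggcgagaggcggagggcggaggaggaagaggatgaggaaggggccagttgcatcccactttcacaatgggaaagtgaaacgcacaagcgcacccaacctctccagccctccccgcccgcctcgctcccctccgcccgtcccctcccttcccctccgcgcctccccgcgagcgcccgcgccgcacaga
The Plxnd1 stretch held 3 matches and that of Plxnc1 held 1. Of 32851 upstream stretches of the same length in the RefSeq table, 4.79% held at least 1 match and 0.0944% held 3 or more. The other 5 genes had no match in any of their stretches. The GC content was 64.8% for Plxnd1 and 68.8% for Plxnc1, against a median of 52.4%. Other words were searched on both strands of the same stretches. The GC box GGGCGG, which no match shown in capitals contains, had 1 match in Plxnd1 and 4 in Plxnc1, and 32.7% of all stretches held at least 1. The nuclear receptor word AGGTCA had 1 match in the stretch of Plxnd1, and 14.0% of all stretches held it. There was no match in either stretch to the E-box word CAGGTG, held by 17.2% of all stretches, or to the STAT word TTCCNNGAA, held by 4.06% of all stretches. The TATA box word TATAAA, held by 12.4% of all stretches, had no match there either. These matches describe the letters and no binding was measured.

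Plxnd1, which encodes Plexin-D1, a receptor known for steering endothelial cells and thymocytes, was the receptor with the sharpest difference between the tissues. On the d12 arrays of pLN its intensity was 866 and 590 in naive T cells, 2030 and 1371 in Treg cells, 9054 and 3534 in TFH cells and 4925 and 3538 in TFR cells. Both follicular groups lay above both other groups on either array, while TFH and TFR cells overlapped. On d25 the single arrays read 558 in naive T, 1121 in Treg, 6763 in TFH and 4441 in TFR cells, the same order as the d12 group means. In PP the 8 arrays ran from 510 to 1295, with 709 and 602 in GL7+ TFH, 596 and 510 in GL7- TFH, 757 and 670 in Treg and 903 and 1295 in TFR cells. No PP array of any group reached the lowest Treg array of pLN d12 on this lead probe. The higher PP TFR array, at 1295, lay above the single d25 Treg array, at 1121.

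Between pLN TFH and naive T cells on d12, Plxnd1 rose 7.92-fold (log2 fold change 2.98, SE 0.41, limma adjusted p = 0.000549, n = 2 per group). Against Treg cells pLN TFH cells were 3.39-fold higher (log2 1.76, SE 0.41, adjusted p = 0.017). That call was lost without TFH replicate 1 (log2 1.08, adjusted p = 0.117) or without Treg replicate 2 (log2 1.48, adjusted p = 0.131). The differences of Treg from naive T cells (log2 1.22, adjusted p = 0.192) and of TFR from Treg cells (log2 1.32, adjusted p = 0.0676) did not pass the test. With the slide as a block, which compares arrays within a slide, both passed, at adjusted p = 0.0137 and adjusted p = 0.00391. Within slides 1 and 2 the TFR minus Treg difference was 1.28 and 1.37 on the log2 scale.

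Plxnd1 was 8.66-fold lower in PP than in pLN TFH cells (log2 -3.11, SE 0.41, adjusted p = 0.00321) and 3.86-fold lower in PP than in pLN TFR cells (log2 -1.95, SE 0.41, adjusted p = 0.0106). In Treg cells the tissue difference of log2 -1.23 did not pass (adjusted p = 0.185). With slide as a random block the first 2 differences stayed called, at adjusted p = 0.0124 and adjusted p = 0.0273. Without slide 4, which leaves 1 PP array per group that is assumed to vary like the pLN groups, the sizes were log2 -3.23 and -1.69 and the adjusted p rose to 0.0877 and 0.151. The TFR call was also lost without pLN TFR replicate 1 (log2 -1.71, adjusted p = 0.0851) or without PP TFR replicate 1 (log2 -1.69, adjusted p = 0.0729). The step from Treg to TFH was log2 2.16 and 1.37 on the d12 slides of pLN and 2.59 on the d25 slide, but -0.10 and -0.15 on the PP slides. The test of this difference between tissues gave log2 -1.89 (SE 0.58), which did not pass after adjustment over all probes (adjusted p = 0.364) and passed with the slide as a block (adjusted p = 0.0261). Each tissue has slides of its own, so tissue cannot be told apart from slide in the direct comparisons.

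The second Plxnd1 probe, at chromosome 6, 115905315 to 115905374 of the mm9 assembly, lies a short way from the lead probe at 115904829 to 115904888, both on the minus strand. It was called higher in pLN TFH than in naive T cells (log2 2.80, adjusted p = 0.0036) and lower in PP than in pLN TFH cells (log2 -2.36, adjusted p = 0.0296). It was not called for pLN TFH against Treg cells (log2 1.62, adjusted p = 0.0702) or for TFR cells of PP against pLN (log2 -1.43, adjusted p = 0.0959). This probe read 595 in PP TFR replicate 1, above its 506 in pLN d12 Treg replicate 2. Between PP GL7+ TFH and Treg cells it differed by log2 0.01 and the lead probe by -0.12, and neither passed the test (adjusted p = 1 and adjusted p = 0.941).

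**Figure D1:**
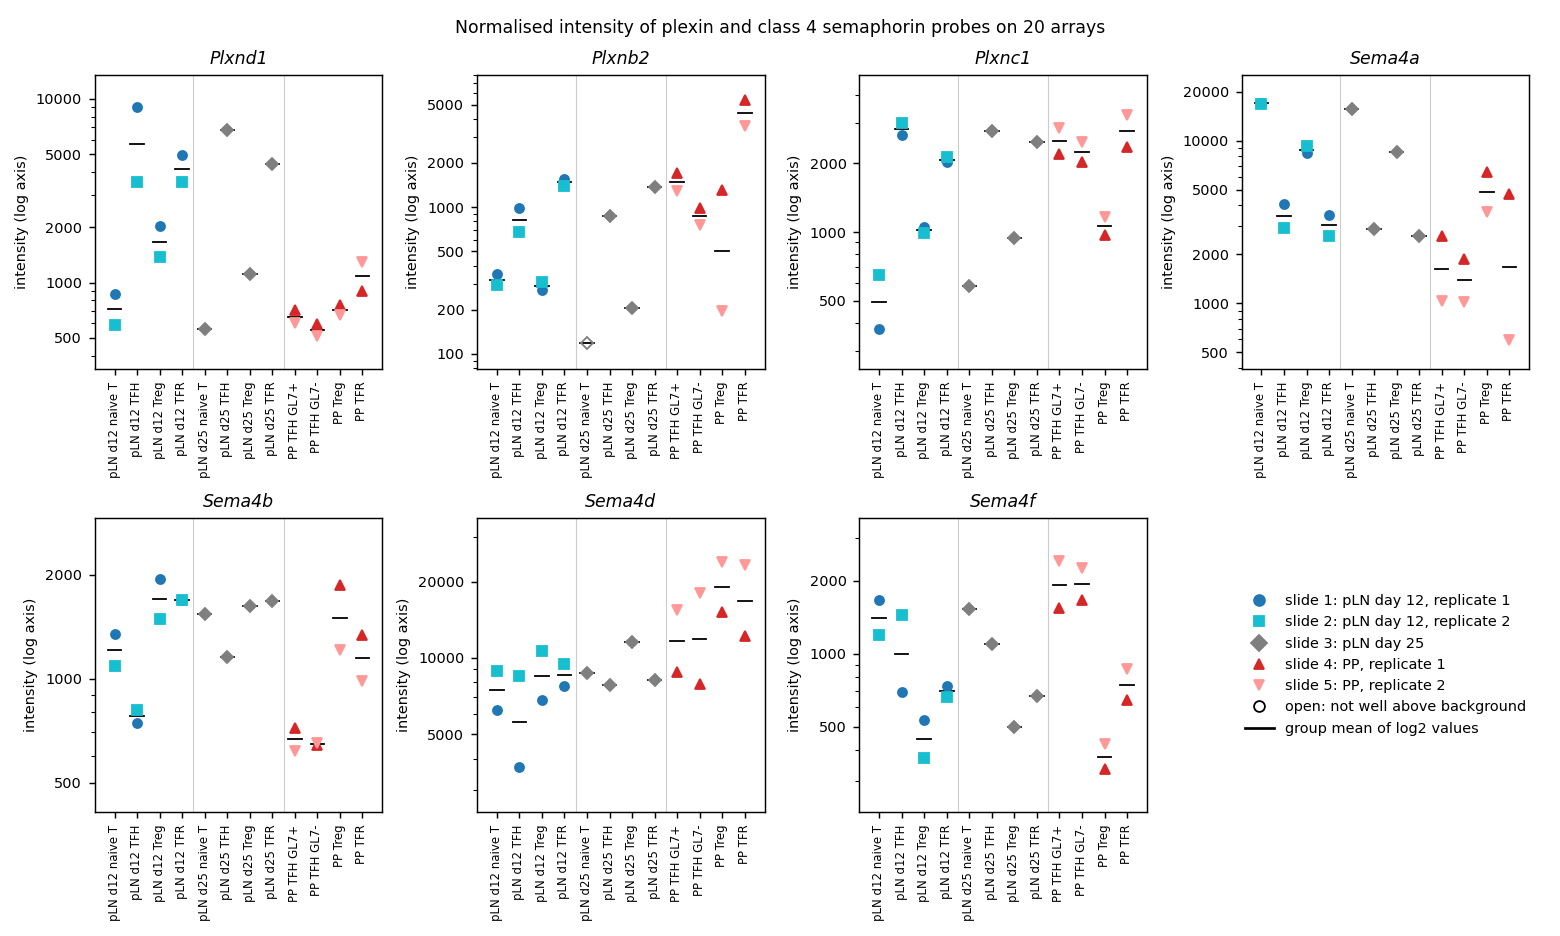
Each panel plots the normalised intensity (log axis) of 1 gene's lead probe on 20 arrays in 12 groups, with 1 symbol per slide, open symbols for values not well above background and a bar for the group mean of log2 values. Plxnd1 is high in pLN TFH and TFR cells and at most 1295 on any PP array, Plxnc1 is high in the follicular groups of both tissues, and Sema4a is highest in naive T cells.

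Plxnc1, which encodes Plexin-C1, the receptor of Sema7A, was high in the follicular cells of both tissues. In naive T cells of pLN d12 its intensity was 377 and 651, in Treg cells 1048 and 995, in TFH cells 2664 and 2992 and in TFR cells 2032 and 2130. The groups did not overlap and stood in that rising order from naive T through Treg and TFR to TFH cells. On d25 the readings were 583 in naive T, 941 in Treg, 2470 in TFR and 2786 in TFH cells. In PP they were 968 and 1164 in Treg, 2348 and 3269 in TFR, 2193 and 2868 in GL7+ TFH and 2026 and 2493 in GL7- TFH cells. Over all 20 arrays, every TFH and TFR array read 2026 or more and every naive T and Treg array 1164 or less.

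Plxnc1 rose 5.70-fold in pLN TFH over naive T cells (log2 2.51, SE 0.27, adjusted p = 0.000117) and 2.76-fold over Treg cells (log2 1.47, SE 0.27, adjusted p = 0.00521). Both calls held with each of their arrays left out in turn, at a highest adjusted p of 0.00161 and 0.0421. TFR cells were 2.04-fold above Treg cells in pLN (log2 1.03, SE 0.27, adjusted p = 0.0364) and 2.61-fold in PP (log2 1.38, SE 0.27, adjusted p = 0.008), and PP GL7+ TFH cells were 2.36-fold above PP Treg cells (log2 1.24, SE 0.27, adjusted p = 0.013). The pLN TFR call was lost with any of its 4 arrays left out (log2 0.99 to 1.06, adjusted p 0.126 to 0.173), and with all probes tested (adjusted p = 0.0644). The PP calls were lost without PP Treg replicate 1 (TFR log2 1.25, adjusted p = 0.0537, and TFH log2 1.11, adjusted p = 0.0788). The TFR call was lost without PP TFR replicate 2 (log2 1.15, adjusted p = 0.0668) and the TFH call without PP GL7+ TFH replicate 2 (log2 1.05, adjusted p = 0.103). Without slide 4 they were as large, at log2 1.49 and 1.30, with adjusted p = 0.104 and adjusted p = 0.135. The Treg level stood log2 1.04 above naive T cells and passed only with the slide as a block (adjusted p = 0.00691 against 0.0684 without it) or without naive T replicate 2 (log2 1.44, adjusted p = 0.0215).

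Between the tissues Plxnc1 differed by log2 -0.17 in TFH cells (95% confidence interval -0.78 to 0.43), 0.41 in TFR cells (-0.19 to 1.02) and 0.06 in Treg cells (-0.55 to 0.66), none of which passed the test. A second, dimmer Plxnc1 probe, detected on 17 of 20 arrays, had the same direction and was called for pLN TFH against naive T cells only (log2 2.31, adjusted p = 0.0306), with 1 of the 2 naive T arrays below background.

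Plxnb2 encodes Plexin-B2, a receptor of Sema4C and Sema4D that is also known from germinal centre B cells. Its highest intensities were those of PP TFR cells. In pLN d12 it read 348 and 296 in naive T, 271 and 307 in Treg, 992 and 682 in TFH and 1555 and 1400 in TFR cells. On d25 it read 206 in Treg, 868 in TFH and 1377 in TFR cells, while naive T cells, at 119, were not well above background. In PP it read 1710 and 1284 in GL7+ TFH, 994 and 757 in GL7- TFH, 1304 and 196 in Treg and 5336 and 3560 in TFR cells. The TFR arrays lay above every other array of their tissue, though TFR against TFH cells did not pass the test in pLN (log2 0.84, adjusted p = 0.7) or PP (log2 1.56, adjusted p = 0.381, and 0.0827 with the slide as a block), and the PP Treg pair was the most uneven Plxnb2 pair, with the higher value on slide 4.

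TFR cells had 5.11-fold more Plxnb2 signal than Treg cells in pLN (log2 2.35, SE 0.66, adjusted p = 0.0461) and 8.62-fold more in PP (log2 3.11, SE 0.66, adjusted p = 0.0123). The pLN call was lost with any of the 4 arrays left out (log2 2.26 to 2.44, adjusted p 0.154 to 0.194) and with all probes tested (adjusted p = 0.112), and the slide block gave adjusted p = 0.00743. The PP difference was 2.03 on slide 4 and 4.18 on slide 5, and slide 5, with 1 array per group, is all that is left of PP without slide 4. It shrank to log2 1.74 without PP Treg replicate 2 (adjusted p = 0.0163) and lost its call without PP TFR replicate 1 (log2 2.82, adjusted p = 0.0835). The difference between PP GL7+ TFH and Treg cells, log2 1.55 (adjusted p = 0.185), passed with the slide block (adjusted p = 0.0406). It hung on the Treg arrays, at log2 2.92 without Treg replicate 1, 0.18 without replicate 2 and 2.71 without slide 4. The same step in pLN, log2 1.51 (adjusted p = 0.19), passed with the slide block (adjusted p = 0.043).

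On slide 4 the B cell marker sum was 117000 in Treg and 175600 in TFR cells, against 15040 and 13300 on slide 5, and Plxnb2 was log2 2.73 higher in Treg and 0.58 higher in TFR cells on slide 4 than on slide 5. The part of these transcripts in the Plxnb2 level was not tested. The difference between TFR cells of PP and pLN was log2 1.56 over all arrays (adjusted p = 0.145). Without slide 4, with 1 PP TFR array left, it was log2 1.27.

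**Figure D2:**
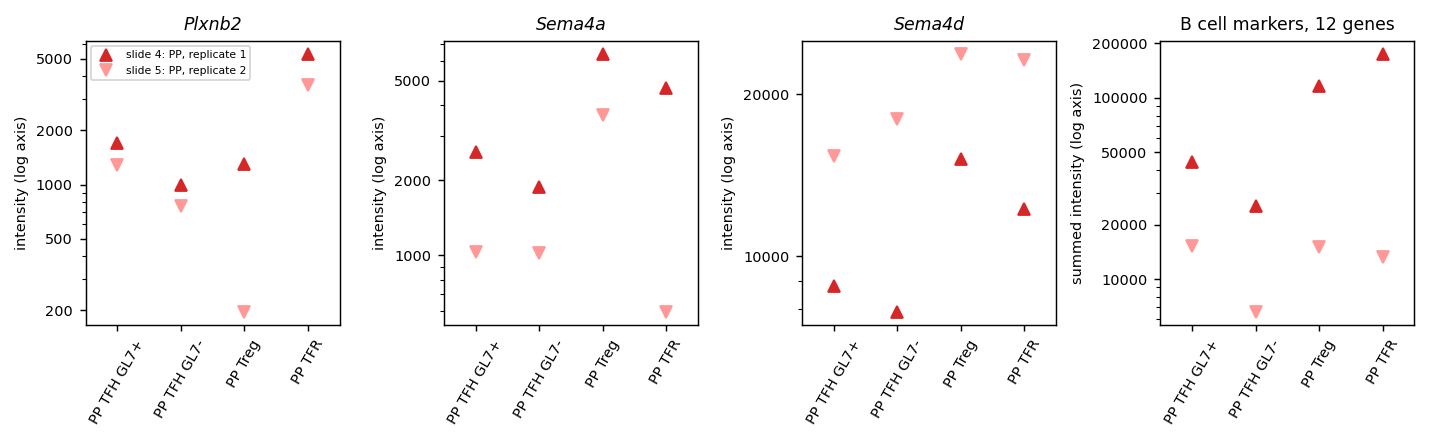
The 4 panels plot Plxnb2, Sema4a and Sema4d intensity and the summed intensity of 12 B cell marker genes (log axes) on the 8 PP arrays, with dark upward triangles for slide 4 and pale downward triangles for slide 5. Plxnb2 in Treg cells, Sema4a in TFR cells and the B cell sum are higher on slide 4, and Sema4d is higher on slide 5 in each group.

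Sema4a encodes a ligand that binds Plexin-D1, Plexin-B members and, in mice, TIM-2, and that is known for roles in T cell priming and Treg stability. It had its highest intensity in naive T cells, at 16998 and 16851 on d12 and 15612 on d25. Treg cells of pLN read 8383, 9246 and 8534, TFH cells 4054, 2900 and 2875, and TFR cells 3504, 2612 and 2604, with the d25 array last. These groups were separate except that TFH and TFR cells overlapped. In PP, Treg cells read 6413 and 3632, GL7+ TFH 2592 and 1031, GL7- TFH 1875 and 1025 and TFR cells 4687 and 594. The high PP TFR array, that of slide 4, thus lay between the 2 Treg arrays, and the low one lay below every PP TFH array.

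The lower Sema4a level of pLN TFH than of naive T cells (log2 -2.30, SE 0.80, adjusted p = 0.0722) did not pass the test, whose spread is pooled over all groups, the uneven PP pairs included. It passed with 75th percentile scaling without the quantile step (log2 -2.38, adjusted p = 0.0483) and with the slide as a block (adjusted p = 0.00357). The steps from Treg down to TFH and to TFR cells in pLN, log2 -1.36 and -1.54, did not pass (adjusted p = 0.359 and adjusted p = 0.296) and passed with the block, at adjusted p of 0.0434 and 0.028. In PP the same steps were log2 -1.56 and -1.53 (adjusted p = 0.281 and adjusted p = 0.304). They passed with the block, at adjusted p of 0.0267 and 0.0299, and were log2 -1.82 and -2.61 without slide 4, which leaves 1 array per PP group. The PP TFR step was -3.02 without TFR replicate 1 (adjusted p = 0.0122) and -0.04 without TFR replicate 2 (adjusted p = 0.977), so it rested on which TFR array was read. The GL7+ TFH step was -0.90 without TFH replicate 2 (adjusted p = 0.656). On slide 4 Sema4a was higher than on slide 5 by log2 2.98 in TFR cells and by 0.82 to 1.33 in the other groups. The B cell marker sum was higher on slide 4 in the same 4 groups, and its part in the Sema4a level was not tested. Between TFR cells of PP and pLN the Sema4a difference was log2 -0.86 with all arrays (adjusted p = 0.543). Without slide 4, with 1 PP TFR array left (594), it was log2 -2.35, and the uneven PP TFR pair no longer enters the spread.

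Sema4b, a class 4 ligand with fewer known functions in T cells, was lowest in TFH cells. In pLN d12 it read 1353 and 1087 in naive T, 1950 and 1490 in Treg, 1689 on both arrays in TFR and 746 and 814 in TFH cells. In PP it read 1871 and 1209 in Treg, 1338 and 983 in TFR, 722 and 617 in GL7+ TFH and 644 and 654 in GL7- TFH cells. TFH arrays lay below all other arrays of d12 and of PP. On d25 the TFH array, at 1159, was also the lowest, beside 1538 in naive T, 1628 in Treg and 1685 in TFR cells. It lay above the lower naive T array of d12, at 1087.

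Sema4b was 2.19-fold lower in TFH than in Treg cells of pLN (log2 -1.13, SE 0.25, adjusted p = 0.0118) and 2.25-fold lower in PP (log2 -1.17, SE 0.25, adjusted p = 0.0102), and pLN TFR cells were 2.17-fold above TFH cells (log2 1.12, SE 0.25, adjusted p = 0.0237). These calls held with the slide as a block, at adjusted p of 0.00139, 0.00116 and 0.00307 in the same order. The TFR and TFH difference of PP, log2 0.78, did not pass (adjusted p = 0.153), and the test of the difference between tissues gave log2 -0.34 (adjusted p = 1). With the block the PP difference had adjusted p = 0.0219, but was under the log2 size of 1 that a call required. The TFR call was lost with any of its 4 arrays left out (log2 1.05 to 1.18, adjusted p 0.0714 to 0.159). The pLN TFH call was lost without TFH replicate 1 (log2 -1.07, adjusted p = 0.0781) or Treg replicate 1 (log2 -0.94, adjusted p = 0.101). The PP call was lost without Treg replicate 1 (log2 -0.86, adjusted p = 0.0724), without GL7+ TFH replicate 2 (log2 -1.06, adjusted p = 0.0783) and without slide 4 (log2 -0.97, adjusted p = 0.123).

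Sema4d encodes CD100, the semaphorin that T cells carry in abundance and that binds CD72 on B cells. It was bright on every array and no comparison called it. The d12 arrays of pLN read 6231 and 8880 in naive T, 3692 and 8461 in TFH, 6791 and 10598 in Treg and 7737 and 9437 in TFR cells, so that all 4 groups overlapped. On d25 it ran from 7814 in TFH to 11540 in Treg cells. In PP it read 8797 and 15394 in GL7+ TFH, 7886 and 18002 in GL7- TFH, 15170 and 23803 in Treg and 12228 and 23159 in TFR cells. Replicate 2 read higher than replicate 1 in each of the 8 groups with a pair. Within a slide, TFH cells lay below Treg cells on 5 of 5 slides, by log2 -0.88 and -0.32 on the d12 slides, -0.56 on d25 and -0.79 and -0.63 on the PP slides. With the slide as a block this difference had adjusted p = 0.0445 in pLN (log2 -0.60) and adjusted p = 0.0251 in PP (log2 -0.71), both under the log2 size of 1 that a call required. The PP minus pLN differences were log2 1.16 in Treg (95% confidence interval -0.03 to 2.36), 1.06 in GL7+ TFH (-0.14 to 2.25) and 0.98 in TFR cells (-0.22 to 2.17), with adjusted p = 0.36, adjusted p = 0.322 and adjusted p = 0.267.

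Sema4f, a class 4 semaphorin best known from neurons and glia, was lowest in Treg cells. In pLN d12 it read 1663 and 1191 in naive T, 533 and 373 in Treg, 737 and 664 in TFR and 694 and 1443 in TFH cells, and on d25 1523, 497, 671 and 1091 in the same order. In PP it read 334 and 423 in Treg, 644 and 863 in TFR, 1535 and 2418 in GL7+ TFH and 1663 and 2251 in GL7- TFH cells. Treg arrays lay below the arrays of all other groups in both tissues, and the pLN TFH pair was uneven and overlapped with TFR and naive T cells.

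Sema4f was 5.13-fold higher in GL7+ TFH than in Treg cells of PP (log2 2.36, SE 0.38, adjusted p = 0.00214), a call that held with each of the 4 arrays left out (highest adjusted p = 0.0252) and reached log2 2.51 without slide 4, with adjusted p = 0.0708. In pLN the same difference was log2 1.17 (adjusted p = 0.0697) and passed with the slide block (adjusted p = 0.0219) or without TFH replicate 1 (log2 1.69, adjusted p = 0.0267). The difference between the tissues in this step, log2 1.19, did not pass (adjusted p = 0.825). Treg cells of pLN were 3.16-fold lower than naive T cells (log2 -1.66, SE 0.38, adjusted p = 0.0354), but the call was lost with any of the 4 arrays left out (log2 -1.92 to -1.40, adjusted p 0.0762 to 0.262) and with all probes tested (adjusted p = 0.0921). PP TFR cells lay below GL7+ TFH cells by log2 -1.37 (adjusted p = 0.0901, and 0.0289 with the slide block). The other Sema4f probe was at the floor of 20 and not detected on any of the 20 arrays, and was not tested.

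**Figure D3:**
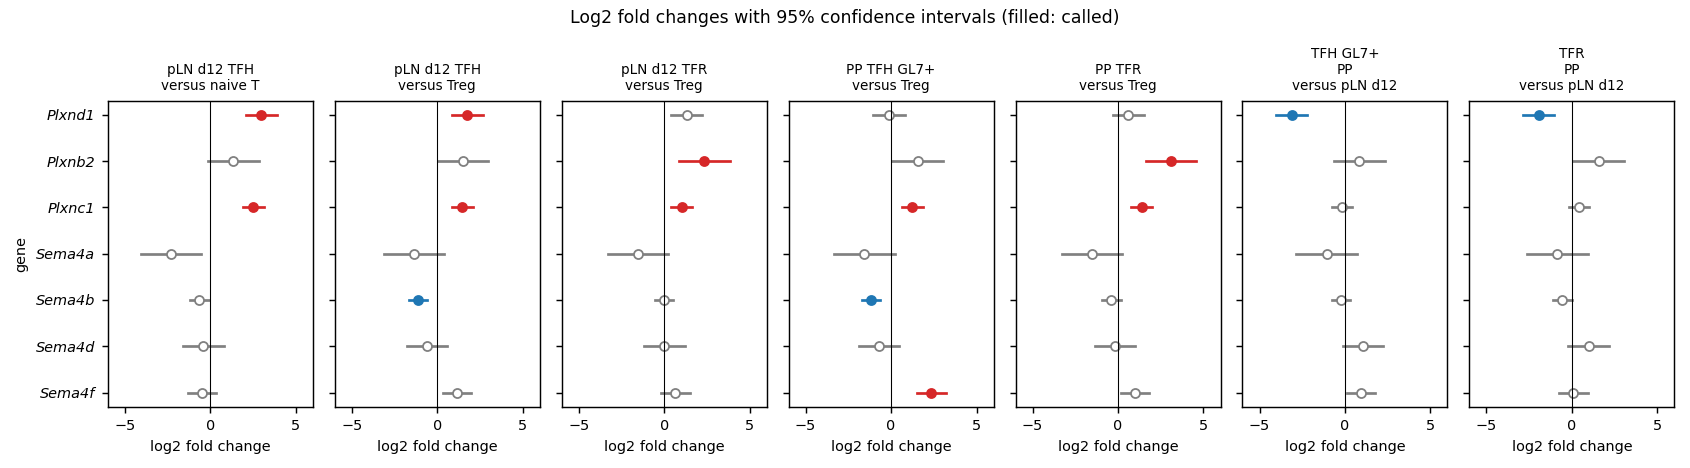
Points give log2 fold changes of the 7 lead probes in 7 comparisons and lines their 95% confidence intervals, with filled red (higher) or blue (lower) points for called differences and open grey points for the others. Plxnc1 is called higher in each comparison of follicular with Treg cells shown, and Plxnd1 is called lower in PP than in pLN in TFH and TFR cells.

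Counted over the members, 2 of 7 were called between pLN TFH and naive T cells, both higher (Plxnd1 and Plxnc1), where 14.7% of all tested probes were called, 9.27% higher and 5.48% lower. Between pLN Treg and naive T cells 1 was called (Sema4f, lower), against 3.76% of all probes, 2.86% higher and 0.898% lower. Between TFR and Treg cells of pLN 2 were called, both higher (Plxnb2 and Plxnc1), against 8.35%, 5.79% higher and 2.56% lower. Between TFR and TFH cells of pLN 1 was called (Sema4b, higher), against 5.01%, 2.81% higher and 2.2% lower. Between TFH and Treg cells of pLN 3 were called, Plxnd1 and Plxnc1 higher and Sema4b lower, against 10.5%, 6.1% higher and 4.39% lower. In these 5 comparisons the median log2 fold change of the 7 genes was, in the same order, -0.41, 0.19, 0.65, -0.18 and 1.17, beside -0.09, -0.03, -0.08, 0.01 and -0.06 over all probes. These comparisons share arrays with each other. With the slide as a block the 5 counts were 3, 3, 4, 1 and 6, where 19.1%, 6.11%, 12.2%, 8.24% and 14.6% of all probes were called, and the 6 were all members but Sema4d.

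In PP, TFR against Treg cells called 2 of 7, both higher (Plxnb2 and Plxnc1), beside 9.25% of all probes, 6.23% higher and 3.02% lower. GL7+ TFH against Treg cells called 3, Plxnc1 and Sema4f higher and Sema4b lower, beside 9.87%, 5.26% higher and 4.62% lower. TFR against GL7+ TFH cells called 0 of 7 by limma beside 3.44%, with 3 members and 11.4% of all probes at an unadjusted p under 0.05. GL7+ against GL7- TFH cells also called 0, beside 0.00898%, with 0 members and 1.14% of all probes at an unadjusted p under 0.05. The largest difference by GL7 among the 7 was log2 0.77 for Plxnb2 (95% confidence interval -0.70 to 2.24). In these 4 comparisons the members' median was 0.60, -0.12, 0.53 and 0.16, beside -0.06, 0.03, -0.05 and 0.01 over all probes. With the slide block the 4 counts were 3, 5, 1 and 0, beside 13.9%, 14.7%, 6.18% and 0.018%. Without slide 4, with 1 array left per PP group, Plxnc1 lost its call in the first 2 comparisons. Sema4b and Sema4f lost theirs in GL7+ TFH against Treg cells, and calls were also gained in both comparisons. For TFR against Treg cells the sizes left were log2 1.49 for Plxnc1, 4.18 for Plxnb2 and -2.61 for Sema4a. For GL7+ TFH against Treg cells they were 1.30 for Plxnc1, 2.71 for Plxnb2, -1.82 for Sema4a, -0.97 for Sema4b and 2.51 for Sema4f.

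Between the tissues 0 members were called in Treg cells (2.24% of all probes), with 1 member and 14.6% of all probes at an unadjusted p under 0.05. In TFH cells 1 was called (4.54%, 2.36% higher and 2.18% lower) and in TFR cells 1 (11.1%, 5.74% higher and 5.39% lower), which was Plxnd1, lower, in both. The members' median was -0.18, -0.17 and 0.09, beside -0.04, 0.03 and 0.00 over all probes. The 3 tests of tissue differences in the steps TFR minus Treg, TFR minus TFH and TFH minus Treg called none by limma, beside 0.548%, 0.611% and 0.323% of all probes, with 0, 0 and 2 members and 8.17%, 6.49% and 6.01% of all probes at an unadjusted p under 0.05. With the slide block they called 0, 0 and 1 (Plxnd1), beside 4.58%, 2.75% and 3.38%. Between d25 and d12 none was called by limma in any of the 4 cell types, nor was any at an unadjusted p under 0.05, and 0% to 0.0314% of all probes were called. Day and slide cannot be told apart there. The F test over the 12 groups called the lead probes of Plxnd1 (adjusted p = 0.000486) and Plxnc1 (adjusted p = 0.000419), beside 17.3% of all probes. It did not call the other probe of Plxnd1 (adjusted p = 0.0082) or of Plxnc1 (adjusted p = 0.143). It missed its stricter threshold for Sema4b (adjusted p = 0.0059), Sema4f (0.00598), Plxnb2 (0.00867), Sema4a (0.0498) and Sema4d (0.362). Without slide 4 the F test called neither Plxnd1 nor Plxnc1, and the members it called were others. That fit leaves 1 array per PP group, so the uneven PP pairs of Plxnb2 (Treg, log2 2.73) and Sema4a (TFR, log2 2.98) no longer enter its spread.

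**Figure D4:**
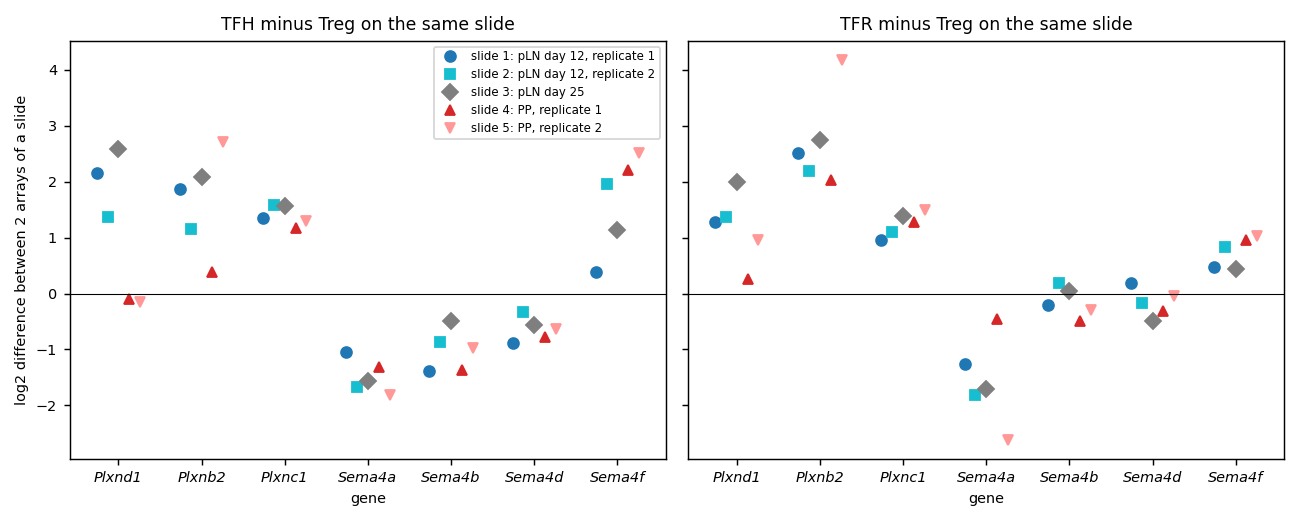
Each point is the log2 difference between the TFH array (left; GL7+ in PP) or TFR array (right) and the Treg array of the same slide, for 7 genes and 5 slides. Plxnc1 lies above 0 and Sema4a below 0 on every slide in both panels, while the Plxnd1 step to TFH is 1.37 to 2.59 on the pLN slides and just under 0 on the PP slides.

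In the order of group means, few neighbours differed beyond their spread, which was judged without adjustment for the number of probes or pairs. For Plxnd1 only the step from pLN d12 TFR (mean 4174) down to pLN d12 Treg cells (1669) was beyond it, among 11 neighbouring pairs. For Plxnb2 it was the step from PP TFR (4359) to PP GL7+ TFH cells (1482), and for Plxnc1 that from pLN d12 TFR (2080) to PP Treg cells (1061), which divides the follicular from the other groups. For Sema4b it was the step from PP TFR (1147) to pLN d12 TFH cells (779). None of the 11 neighbouring steps was beyond the spread for Sema4a, Sema4d or Sema4f. The range of the group means on the log2 scale was 3.62 for Plxnd1, 3.61 for Sema4a, 2.51 for Plxnc1, 2.36 for Sema4f, 1.77 for Sema4d and 1.39 for Sema4b. None is given for Plxnb2, whose lowest group, the single d25 array of naive T cells at 119, was not well above background. In sorted bulk RNA, a lower level can mean fewer cells with the transcript or less of it per cell, and these cannot be told apart.

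Over the 12 group means, the levels of Plxnc1 and Sema4a ran in opposite directions (r = -0.925), as did those of Plxnb2 and Sema4a (r = -0.866) and of Sema4b and Sema4f (r = -0.722), while Plxnb2 and Plxnc1 ran together (r = 0.841). Plxnd1 followed no other member closely (r between -0.584 and 0.546). These correlations are descriptions over group means that share slides and normalisation. Among 10484 genes, those with the most similar pattern were Dlg5 (r = 0.971), Plekhh3 (0.964) and Itgb1 (0.942) for Plxnd1, Slc7a7 (0.97), Tnfrsf8 (0.968) and Tmem231 (0.968) for Plxnb2, and Bcl2a1c (0.993), Bcl2a1d (0.99) and Npdc1 (0.99) for Plxnc1. For the ligands they were Mettl27 (0.992), Zyg11b (0.989) and Adcy6 (0.982) for Sema4a, Lrp11 (0.98), Neb (0.974) and Sytl1 (0.969) for Sema4b, Nfya (0.944), AK157330 (0.939) and Zfp395 (0.938) for Sema4d, and Siah3 (0.94), A930012O16Rik (0.904) and B630019K06Rik (0.901) for Sema4f. Bcl2a1c and Bcl2a1d are near-identical copies whose probes may not tell them apart.

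Of the other plexins, 5 of 6 were tested. Of these 2 were called higher and none lower in pLN TFH than in naive T cells (14.7% of all probes called). In PP TFR against Treg cells 3 were called higher and none lower (9.25%). As 1 of the 3 was Plxnb3, that count cannot be set against the share of all probes. Plxnb1, a receptor of Sema4d, read 324.5 and 372 in PP TFR and 43.61 and 53.96 in PP Treg cells, the first of which was below background (log2 2.84, adjusted p = 0.0037), and was higher in PP than in pLN TFR cells (log2 2.10, adjusted p = 0.0158), with 1 of the pLN arrays below background. Plxna3 was not well above background on either naive T array of pLN d12. It read 115.1 and 187.7 in TFH cells, at least 2.39-fold higher. The limma fit, which used the unresolved naive T values, gave adjusted p = 0.00059, and this does not test the bound. Plxnb3 read 89.03 and 119.9 in PP TFR cells and was detected on 5 of 20 arrays. It passed the filter on dim probes only through PP TFR cells, where it was high, so no test of it is given.

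Of the other semaphorins and neuropilins, 9 of 18 were tested. Of these 2 were called higher and none lower in pLN TFH than in naive T cells (14.7% of all probes called), and none higher and 1 lower in TFR than in Treg cells of pLN (8.35%) and of PP (9.25%). Sema7a, the ligand of Plexin-C1, read 764.4 and 1040 in pLN d12 TFH, 118.2 and 235.9 in naive T and 104.9 and 122.2 in TFR cells. It rose in TFH over naive T cells (log2 2.42, adjusted p = 0.0238) and was lower in TFR than in TFH cells (log2 -2.98, adjusted p = 0.0219). Nrp2, a co-receptor of class 3 semaphorins, was lower in TFR than in Treg cells of pLN (log2 -1.86, adjusted p = 0.0227) and of PP (log2 -2.68, adjusted p = 0.00321).

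Of the signalling partners and other receptors, 18 of 19 were tested. Of these 2 were called higher and 2 lower in pLN TFH than in naive T cells (14.7% of all probes called) and 3 higher and none lower in TFR than in Treg cells of pLN (8.35%). None were higher and 3 lower in GL7+ TFH than in Treg cells of PP (9.87%), and none higher and 4 lower in TFR cells of PP than of pLN (11.1%), the 4 being Rras2, Mical1, Havcr2 and Itgb1. Rnd1, a GTPase that binds plexins, was higher in TFR than in Treg cells of pLN (log2 1.37, adjusted p = 0.00237) and of PP (log2 1.84, adjusted p = 0.000331). Rras2, a Ras-like GTPase, was lower in TFH than in Treg cells of pLN (log2 -3.58, adjusted p = 2.1e-05) and of PP (log2 -4.09, adjusted p = 8.16e-06). Cd72, the receptor of Sema4d, was lower in TFH than in Treg cells of pLN (log2 -2.84, adjusted p = 0.0046) and of PP (log2 -2.81, adjusted p = 0.0049). Cd72 is also a B cell gene, and in PP TFR cells it read 2085 on slide 4 and 941.4 on slide 5. The integrin chain Itgb1, which followed Plxnd1, read 14000 and 14180 in pLN d12 TFH and 1577 and 1542 in PP GL7+ TFH cells (log2 -3.18, adjusted p = 0.000637).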

How the data were processed

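RNA of sorted cells was hybridised to 20 single-colour arrays that carry each probe in 4 features. The deposited scanner files give the authors' feature intensity, extracted with Agilent Feature Extraction 10.7.3.1 per the labels, and the deposited series matrix gives the intensity the authors averaged over features, brought to common quantiles, set to 1500 at the 75th percentile and floored at 20. These steps were rebuilt from the scanner files as the methods describe (outlier features, those outside 1.42 times the interquartile range and those with a pixel variation above 0.5 left out), and log2 values were taken. The median log2 distance to the series matrix, which served as an alternative, was 0.0347 to 0.0362 per array. Positions are those of the array annotation (mm9), and promoter letters come from RefSeq (GRCm38.p6).

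Probes with at least 3 features well above background on both arrays of a group of 2 were tested. One model with a mean for each of 12 groups was fitted to all arrays with limma 3.58.1 in R 4.3.3, which assumes that d25 groups vary like the others. P-values are two-sided, adjusted by Benjamini-Hochberg over all tested probes, and measure the spread between pooled samples, so 2 arrays per group limit the precision. A difference was called at adjusted p under 0.05 where its log2 size was 1 or more, and the F test, as in the methods, required p under 0.001 with an adjusted p under 0.005. Neighbouring group means were compared by an unadjusted limma test at 0.05. The fit was tested on simulated data.

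The genes named are the members, the genes of fixed lists that were called in a comparison described, and the 3 genes most like each member. Members and lists were chosen with earlier results of these data known, and the promoter motifs after the values were seen. Folds against groups below background are bounds, set by each array's lowest detected intensity. Alternatives were the background correction, the scaling, the averaging of features, the filter, the slide as a block, leaving out slide 4 or each array, and the methods' own tests. Replicate numbers were given in accession order and go with the slides. Replicate differences of the groups on a slide correlated at 0.521 to 0.721 in pLN and 0.661 to 0.866 in PP, so arrays of a slide deviated together, and the slide block stands in for a pairing. Arrays of a further design that the methods name were not analysed here.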

Additional observations from a re-analysis of the deposited data

How the results depend on the processing

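For 39 member differences, of which 16 were called, 420 alternative values were computed, and 359 stayed on their side of the thresholds, 39 lost the call, 22 gained one and 0 turned in direction. With slide as a block within a tissue (the replicate block), the members called were 3 for pLN Treg against naive T, 4 for pLN TFR against Treg, 6 for pLN TFH against Treg, 1 for PP TFR against TFH, 5 for PP TFH against Treg and 1 for the tissue difference in the step from Treg to TFH, and the block moved no other count of calls by over 1.5 times. Without slide 4, with 1 array left per PP group, the tissue comparison no longer called Plxnd1 in TFH or TFR cells. In TFR cells that fit called other members. With all probes tested the count was 0 for pLN Treg against naive T and 0 for pLN TFR against Treg, and with normexp background 1 for the latter. The F test called neither Plxnd1 nor Plxnc1 but other members without slide 4, a fit with 1 array per PP group. It called 4 members with normexp background, 5 with slide as a random block and 1 by the methods' analysis of variance on linear values. The methods' t-test between GL7+ and GL7- TFH cells called 0 members.

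With 1 array left out in turn, the counts ran from 0 to 1 for pLN Treg against naive T, stayed at 0 for pLN TFR against Treg and for pLN TFR against TFH, and ran from 2 to 3 for pLN TFH against Treg. They ran from 1 to 2 for PP TFR against Treg, from 1 to 3 for PP TFH against Treg, from 0 to 1 for the tissue difference in Treg and from 0 to 1 for that in TFR cells. The calls of Plxnd1 and Plxnc1 between pLN TFH and naive T cells, of Plxnd1 between TFH cells of the tissues, of Plxnc1 between pLN TFH and Treg cells and of Sema4f between PP TFH and Treg cells held with each array left out.

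Signals under the lowest detected intensity of an array, which was 20 to 144, are not resolved, and calls were limited to log2 differences of 1 or more. In some comparisons another member was called once an array was left out. No cause was tested for the calls that changed.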
